A study of Sus scrofa with 8 samples.

Results

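The genes described here mark the endothelial cells that line blood vessels, which in skeletal muscle are mostly capillaries. They were taken by symbol from the deposited gene table: PECAM1, CDH5, CLDN5, KDR, FLT1, TEK, TIE1, VWF, EMCN and EGFL7. Of these 10 symbols, 9 name a row of the table, which holds 23235 genes in all, and EGFL7 is not analysed here. All 9 had a mean of at least 1 FPKM (fragments scaled by transcript length and by library size), the minimum for testing, which 9821 genes of the table passed.

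RNA came from the longissimus dorsi, the long muscle of the back, of weaned Duroc x Landrace x Yorkshire piglets. Their age is given as 28 days, and whether it holds for the start of the experiment or for sampling is not settled here. A total of 6 piglets per group were assigned at random to saline, the control, or to melatonin at 5 mg per kg of body weight. Melatonin is the hormone that the pineal gland releases in darkness. Animals of both groups ate the same basal diet and, after 5 days of adaptation, received 10 mL by gavage while fasted each day for 23 days. The comparison asks which muscle genes differed after melatonin, and 4 libraries per group were sequenced. No allele or transgene is named for either group.

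Total counts per library ran from 53471667 to 60629098. The scaling factor used by the test, TMM (trimmed mean of M values), ran from 0.851 to 1.02 in control libraries and from 0.866 to 1.19 after melatonin. Melatonin replicates 1 and 3 had factors of 1.18 and 1.19, the highest of the 8, so FPKM is given as deposited and, as a range or by library, divided by this factor (scaled FPKM). The tissue label was checked with 8 muscle fibre markers, whose summed FPKM was between 76314 and 107055 in every library. Fibroblast and matrix markers set melatonin replicates 1 and 3 apart: their summed FPKM was 8575 and 2569, against 493 to 975 in the other 6 libraries. Replicates carry only a number in the labels, so the p-values measure the spread between these samples. Whether each library came from a separate piglet is not given in the sources used here.

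Endothelial cells hold to each other through VE-cadherin, PECAM1 and claudin-5. They respond to vascular endothelial growth factor (VEGF), which acts through KDR while FLT1 binds much of the ligand. The angiopoietins act through TEK, with TIE1 as its partner, and stabilise or loosen vessels. In muscle, the capillaries deliver oxygen, glucose and fatty acids to the fibres.

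After melatonin none of the 9 genes passed the threshold of an adjusted p under 0.05 in edgeR's quasi-likelihood test. Of all 9821 genes tested, 0 passed, a background of 0%. DESeq2 called 65 genes (0.662%), and 0 of the 9 were among them. The largest fitted difference upward was in the angiopoietin receptor TEK, at 1.35 times the control level (95% interval 1.08 to 1.68), with an adjusted p of 0.440. The largest fitted difference downward was in TIE1, with a log2 fold change of -0.37 ± 0.20 (SE) and an adjusted p of 0.526. The median log2 fold change of the 9 genes was -0.03, beside -0.0014 over all genes tested. Fitted values were above 0 for 2 and below 0 for 7, beside 4893 and 4928 of all genes tested. Of these 7, VWF lay at -0.00077 and EMCN at -0.0044, and 5 changed sign in some alternative runs. At an unadjusted p under 0.05, 1 of the 9 was found, where 10.5% of all genes were (6.67% higher and 3.84% lower after melatonin). In bulk tissue, fewer cells of a type and less RNA per cell cannot be told apart.

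**Figure D1:**
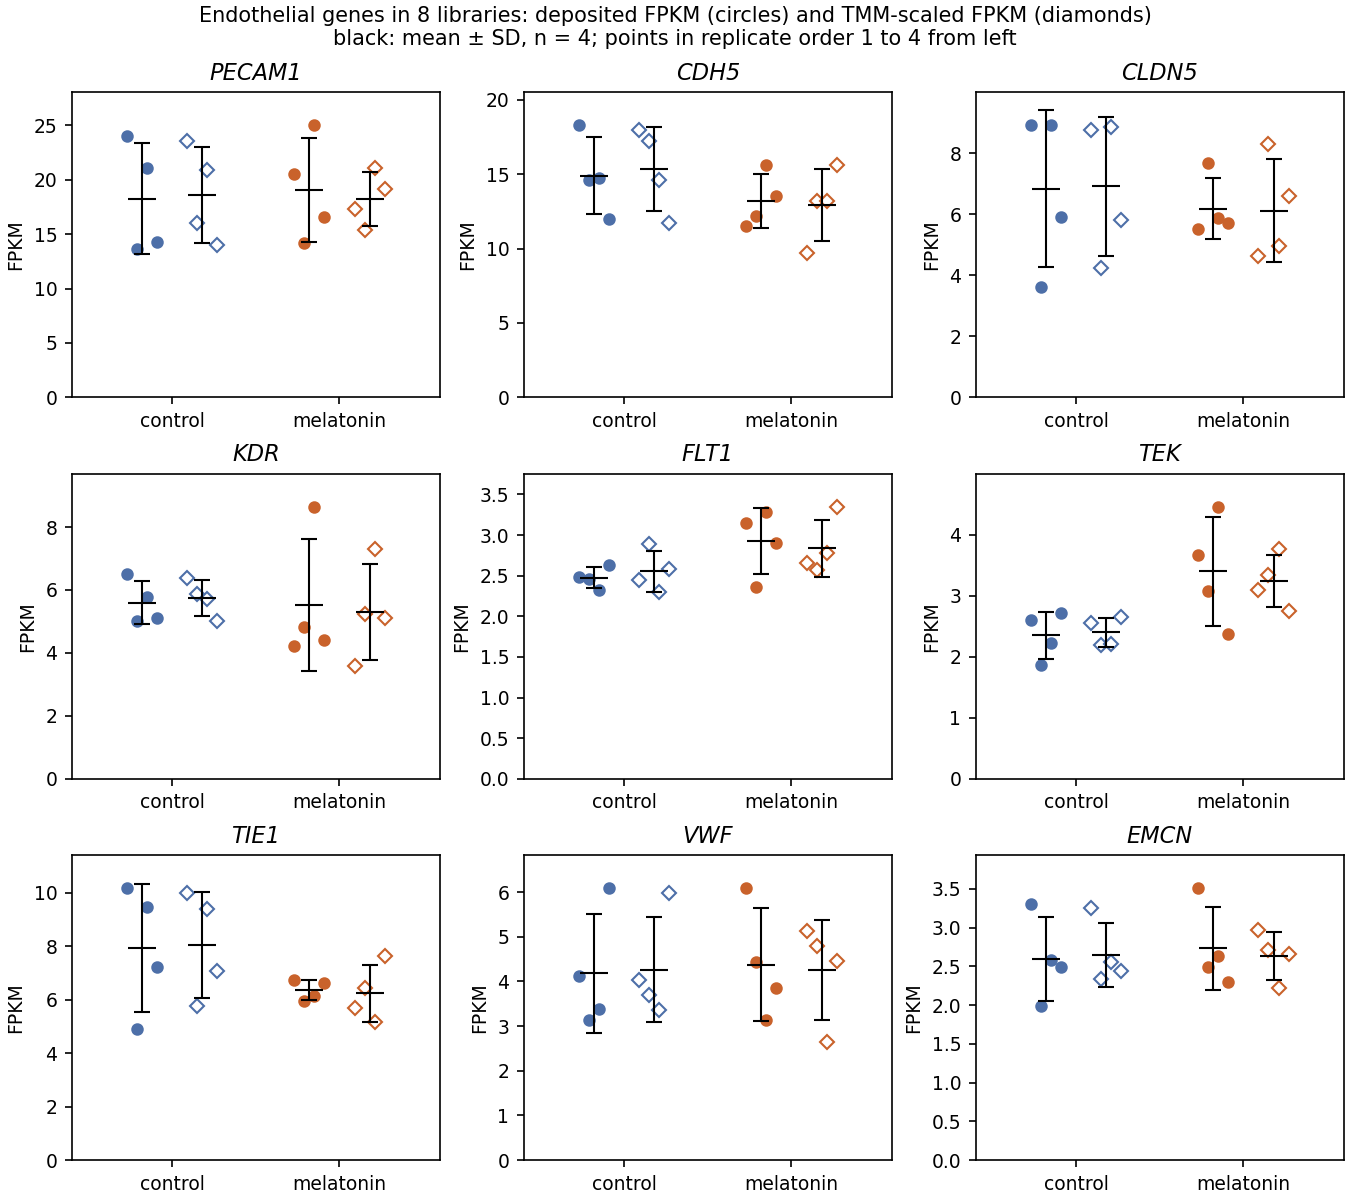
FPKM (y axis, from 0) of 9 endothelial genes in the 4 control (blue) and 4 melatonin (orange) libraries; circles are deposited FPKM, diamonds scaled FPKM, black marks mean ± SD. In TEK the scaled groups do not overlap (2.19 to 2.66 against 2.75 to 3.77), and in the other 8 panels they do.

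PECAM1 (ENSSSCG00000017277, chr12:14649044-14723292, plus strand) encodes an adhesion protein found where endothelial cells touch. Its FPKM was 24.0, 13.6, 21.1 and 14.3 in control replicates 1 to 4 and 20.5, 14.2, 25.0 and 16.6 after melatonin. Each group held 2 libraries near the low end and 2 near the high end, and the groups overlapped almost over their whole range. Scaled FPKM lay between 14.0 and 23.6 for controls and between 15.3 and 21.1 for melatonin libraries. The group means were 18.3 ± 5.12 and 19.1 ± 4.75 FPKM (SD, n = 4 each), and the log2 fold change was -0.03 ± 0.19 (SE, 95% interval -0.46 to 0.39, adjusted p = 0.958). The sign of this value is not settled: the deposited means lie the other way, and without control replicate 1 the log2 fold change was 0.11.

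CDH5 (ENSSSCG00000035772, chr6:27108597-27142177, plus strand) encodes VE-cadherin, the cadherin of endothelial adherens junctions. Its FPKM was 18.3, 14.6, 14.7 and 12.0 in controls and 11.5, 12.2, 15.6 and 13.5 after melatonin. Control replicate 1 was highest and melatonin replicate 1 lowest, and the remaining libraries of the groups were interleaved. Scaled FPKM lay between 11.7 and 17.98 for controls and between 9.73 and 15.6 for melatonin libraries. Means were 14.9 ± 2.60 and 13.2 ± 1.81 FPKM (SD, n = 4 each), with a log2 fold change of -0.25 ± 0.18 (SE, 95% interval -0.66 to 0.16, adjusted p = 0.615). It was -0.16 without control replicate 1 and -0.14 without melatonin replicate 1.

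CLDN5 (ENSSSCG00000041667, chr14:51161042-51163482, minus strand) encodes claudin-5, which seals endothelial tight junctions. Its FPKM was 8.91, 3.60, 8.92 and 5.92 in controls and 5.50, 7.66, 5.87 and 5.70 after melatonin. Control replicates 1 and 3 were the highest libraries, control replicate 2 was the lowest, and the melatonin libraries lay between them, as they did in scaled FPKM (4.64 to 8.31 against 4.23 to 8.84 in controls). The log2 fold change was -0.18 ± 0.27 (SE, 95% interval -0.78 to 0.43, adjusted p = 0.822), with the widest interval of the 9 genes. It was -0.04 without control replicate 1 and -0.36 without melatonin replicate 2, and without melatonin replicates 1 and 3 together the sign turned, to 0.10.

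KDR (ENSSSCG00000008844, chr8:41809122-41856331, minus strand) encodes VEGFR2, the main signalling receptor for VEGF-A. Its FPKM was 6.49, 5.00, 5.77 and 5.12 in controls and 4.23, 4.82, 8.65 and 4.41 after melatonin. In deposited FPKM melatonin replicate 3 stood above all other libraries, and the other 3 melatonin libraries lay below every control. In scaled FPKM melatonin replicate 3 was still the highest, at 7.30, but only melatonin replicate 1, at 3.57, lay below the controls, which ran from 5.01 to 6.38. The deposited means nearly coincided at 5.59 ± 0.688 and 5.53 ± 2.10 FPKM (SD, n = 4 each). The log2 fold change was -0.12 ± 0.20 (SE, 95% interval -0.56 to 0.33, adjusted p = 0.842). It was 0.03 without melatonin replicate 1 and -0.31 without melatonin replicate 3.

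FLT1 (ENSSSCG00000009320, chr11:5621688-5795027, minus strand) encodes VEGFR1, which binds VEGF-A tightly and signals weakly. Its FPKM was 2.49, 2.46, 2.32 and 2.63 in controls and 3.15, 2.37, 3.29 and 2.90 after melatonin. In deposited FPKM the controls lay close together, and 3 of 4 melatonin libraries were above all of them. In scaled FPKM the controls ran from 2.30 to 2.89 and only melatonin replicate 4, at 3.35, was above them. The mean was 2.47 ± 0.128 FPKM in controls and 2.93 ± 0.407 after melatonin (SD, n = 4 each), with a log2 fold change of 0.15 ± 0.14 (SE, 95% interval -0.15 to 0.46, adjusted p = 0.682). It was 0.07 without melatonin replicate 4.

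TEK (ENSSSCG00000005122, chr1:195939577-196051980, minus strand) encodes Tie2, the receptor of the angiopoietins. Its FPKM was 2.60, 1.86, 2.23 and 2.71 in controls and 3.68, 3.08, 4.46 and 2.38 after melatonin. In deposited FPKM 3 melatonin libraries were above every control, and melatonin replicate 4 lay among the controls. Scaling gave 2.56, 2.19, 2.21 and 2.66 for the controls and 3.10, 3.34, 3.77 and 2.75 for the melatonin libraries, so the groups no longer overlapped. The mean deposited FPKM was 2.35 ± 0.387 in controls and 3.40 ± 0.887 after melatonin (SD, n = 4 each). The log2 fold change was 0.43 ± 0.14 (SE), with an unadjusted p of 0.0122 and adjusted p-values of 0.440 in edgeR and 0.201 in DESeq2. TEK was the only one of the 9 genes whose scaled groups did not overlap, beside 4.26% of all genes tested. In deposited FPKM 0 of the 9 were free of overlap, beside 2.2% of all genes. In deposited FPKM the 2 libraries with the most TEK, melatonin replicates 3 and 1, are also those highest in fibroblast and matrix markers, whereas in scaled FPKM the 2 with the most TEK are melatonin replicates 3 and 2. Without melatonin replicates 1 and 3 together the TEK log2 fold change was 0.33 in edgeR, with an unadjusted p of 0.0854 and an adjusted p of 0.952.

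TIE1 (ENSSSCG00000003950, chr6:167919668-167940870, minus strand) encodes the partner receptor of TEK, which itself binds no angiopoietin strongly. Its FPKM was 10.2, 4.91, 9.46 and 7.21 in controls and 6.73, 5.94, 6.13 and 6.61 after melatonin. The melatonin libraries were tightly grouped inside the wide range of the controls, with a coefficient of variation of 5.92% against 30.0%. On the scaled values the melatonin range widened to 5.17 to 7.64 FPKM, so the tight grouping belongs to the deposited scale. Means were 7.94 ± 2.38 and 6.35 ± 0.376 FPKM (SD, n = 4 each), and the fitted log2 fold change of -0.37 had an unadjusted p of 0.0904 in edgeR (95% interval -0.81 to 0.07). It was -0.21 on the log2 scale without melatonin replicates 1 and 3 together. The unadjusted p in edgeR was 0.025 without control replicate 2 and 0.043 without melatonin replicate 4. In those runs 7.48% and 19.2% of all genes tested had an unadjusted p under 0.05. With any other single library left out, the unadjusted edgeR p of TIE1 ran from 0.079 to 0.250.

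VWF (ENSSSCG00000000712, chr5:64519186-65002452, plus strand) encodes von Willebrand factor, the clotting protein stored in endothelial granules and platelets. Its FPKM was 4.11, 3.14, 3.39 and 6.09 in controls and 6.09, 4.43, 3.13 and 3.86 after melatonin. In deposited FPKM each group had a single high library, control replicate 4 and melatonin replicate 1. Scaled FPKM lay between 3.36 and 5.97 for controls and between 2.64 and 5.14 for melatonin libraries, with melatonin replicate 3 lowest. The log2 fold change was -0.00077 ± 0.24 (SE, 95% interval -0.54 to 0.54, adjusted p = 0.999), and it was 0.20 without control replicate 4. Of the platelet genes looked at, ITGA2B averaged 1.32 FPKM, GP9 0.292 and GP1BB 0.0093.

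EMCN (ENSSSCG00000038080, chr8:120145804-120230944, plus strand) encodes endomucin, a surface sialoprotein of capillary and venous endothelium. Its FPKM was 3.31, 1.99, 2.58 and 2.49 in controls and 3.51, 2.50, 2.63 and 2.30 after melatonin. Replicate 1 was the highest library of each group, and the groups overlapped, also in scaled FPKM (2.34 to 3.25 in controls and 2.22 to 2.96 after melatonin). The log2 fold change was -0.0044 ± 0.16 (SE, 95% interval -0.36 to 0.35, adjusted p = 0.993), and it was 0.11 without control replicate 1. EMCN overlaps a U1 small nuclear RNA row on the same strand, which averaged 0.0228 FPKM, and no other gene of the 9 overlaps another row.

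**Figure D2:**
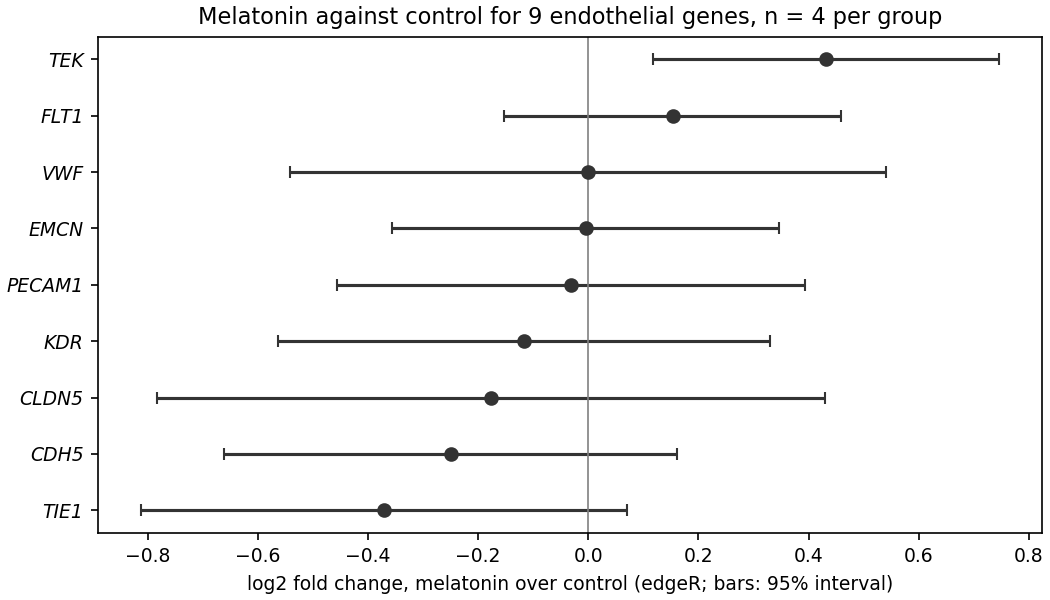
Log2 fold change of melatonin over control (x axis) for each of 9 endothelial genes (y axis), from edgeR with 95% intervals, n = 4 per group. The interval of TEK, 0.12 to 0.75, lies above 0, and the other 8 intervals include 0.

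FPKM is scaled by transcript length, so levels can also be ordered across genes. Over the 8 libraries the mean FPKM was 18.7 for PECAM1 and 14.1 for CDH5, followed by TIE1 at 7.15, CLDN5 at 6.51, KDR at 5.56 and VWF at 4.28. TEK at 2.88, FLT1 at 2.70 and EMCN at 2.66 came last. PECAM1 exceeded CDH5 in 7 of 8 libraries, CDH5 exceeded TIE1 in 8 of 8, and VWF exceeded TEK in 7 of 8. In these 3 steps the mean log2 ratio was larger than its SD over libraries. The other 5 steps of the order were smaller than their SD. By that measure TIE1, CLDN5, KDR and VWF are not separated step by step, and neither are TEK, FLT1 and EMCN. Even so, TIE1 exceeded CLDN5 in 7 of 8 libraries, CLDN5 exceeded KDR in 6 and KDR exceeded VWF in 6. TEK exceeded FLT1 in 5 and FLT1 exceeded EMCN in 4. Raw counts of the 9 genes ran from 528 to 9153 per library.

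Ratios within a library do not depend on its scaling, and 3 were computed: TIE1 to TEK, FLT1 to KDR, and ANGPT2 to ANGPT1. The ratio of TIE1 to TEK was 3.91, 2.64, 4.25 and 2.66 in controls and 1.83, 1.93, 1.37 and 2.78 after melatonin. All libraries but melatonin replicate 4 were on the side of their own group. The means were 3.36 ± 0.837 and 1.98 ± 0.588 (SD, n = 4 each), a geometric mean 1.71-fold lower after melatonin, with an exact two-sided permutation p of 0.0857 (0.257 adjusted over the 3 ratios). The smallest p that 4 against 4 libraries allow is 0.0286. With any other single library left out, the exact permutation p ran from 0.0857 to 0.171. Without melatonin replicate 4, the library on the side of the other group, the exact permutation p was 0.0286 (0.0857 adjusted). That is the smallest p that the libraries left allow. It follows from taking out the only overlapping library, so it is not a separate test.

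The ratio of FLT1 to KDR, the receptors of VEGF-A, was 0.383, 0.492, 0.402 and 0.514 in controls and 0.745, 0.491, 0.380 and 0.658 after melatonin. Melatonin replicates 1 and 4 were above all controls, replicate 3 was below them, and the groups overlapped (exact permutation p = 0.371, 0.557 adjusted). ANGPT1 and ANGPT2, the agonist and the context-dependent antagonist of TEK, averaged under 1 FPKM and were not tested singly. ANGPT1 was 0.776 ± 0.150 FPKM in controls and 1.00 ± 0.296 after melatonin, and ANGPT2 was 0.607 ± 0.178 and 0.665 ± 0.325 (SD, n = 4 each). Their ratio, ANGPT2 to ANGPT1, was 0.795 ± 0.238 and 0.707 ± 0.324 (exact permutation p = 0.743), and its difference turned sign without melatonin replicate 2. ANGPT2 overlaps MCPH1 on the opposite strand, and whether counting used strand is not given in the sources used here.

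**Figure D3:**
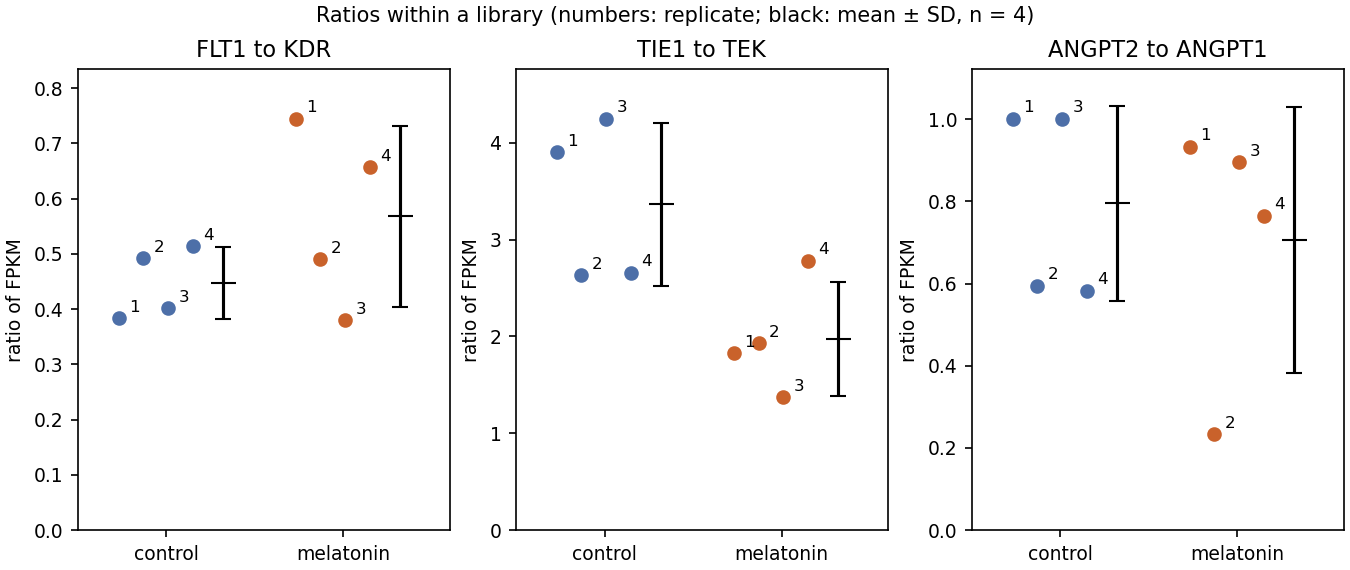
Ratio of FPKM within each library (y axis) for 3 gene pairs, control in blue and melatonin in orange, numbered by replicate, with mean ± SD in black. In TIE1 to TEK, melatonin replicates 1 to 3 sit between 1.37 and 1.93, below the lowest control at 2.64.

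How far the 9 genes went up and down together over the libraries depended on the scaling. Among their 36 pairs Pearson's r of log2(FPKM + 1) over 8 libraries had a median of 0.28 and ran from -0.67 to 0.83, with 28 positive and 8 negative. After scaling, the median was 0.039, with 21 positive and 15 negative. No pair passed adjustment over the 36 in the exact permutation test, where 2 had an unadjusted p under 0.05 and the smallest adjusted p was 0.375. TIE1 and CLDN5 gave the highest value, r = 0.830 (exact permutation p = 0.0104, 0.375 adjusted) and Spearman's rho = 0.643 (exact permutation p = 0.0962, 0.590 adjusted). Their r was 0.571 without the 2 libraries farthest out in TIE1, control replicates 1 and 3, and 0.873 within groups. FLT1 and TEK, with r = 0.736 (exact permutation p = 0.0382), kept no relation without melatonin replicates 1 and 3, at r = -0.019, or after scaling, at r = 0.155.

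**Figure D4:**
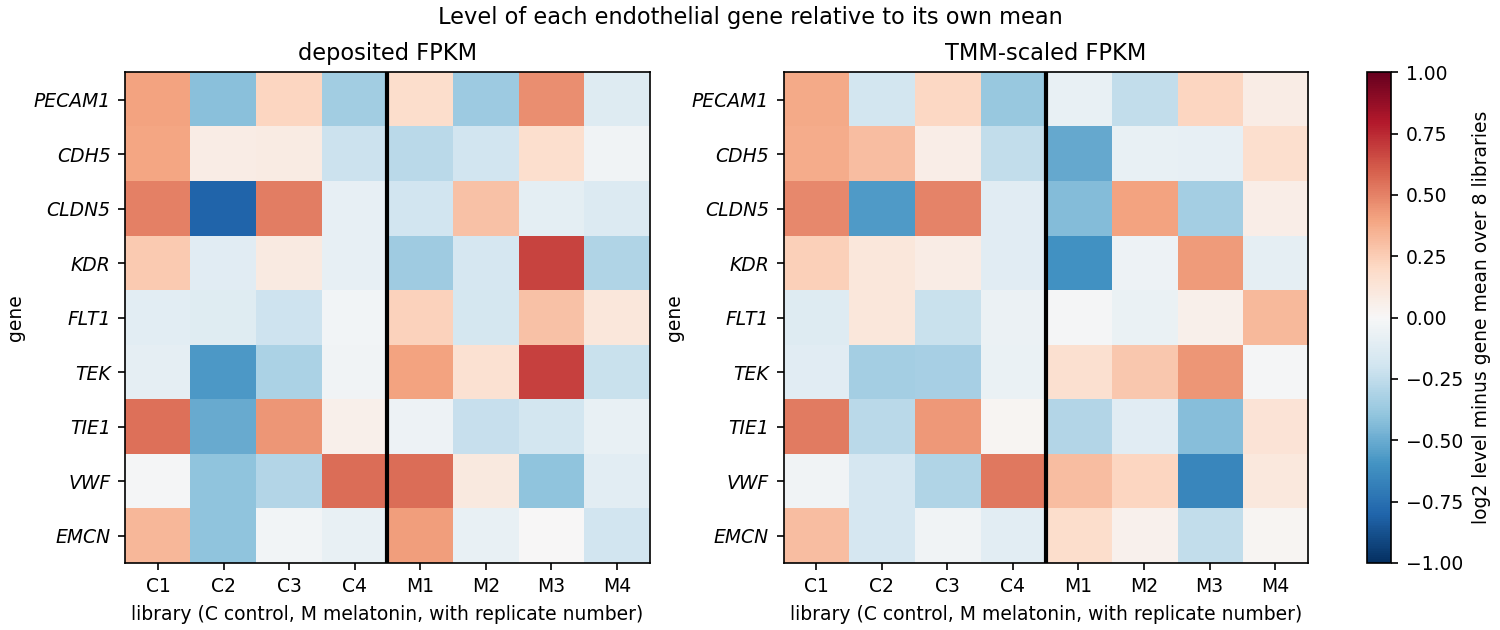
Log2 level of each endothelial gene (rows) relative to its own mean over the 8 libraries (columns; C control, M melatonin), in deposited FPKM at left and scaled FPKM at right; red is above and blue below the mean. No library is red or blue in all 9 rows in deposited FPKM, while TEK is above its mean in melatonin replicates 1 to 3.

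The summed FPKM of the 9 genes was 80.4, 51.2, 70.5 and 58.4 in controls and 64.9, 57.1, 74.8 and 58.3 after melatonin. The group means, 65.1 ± 12.9 and 63.8 ± 8.11 (SD, n = 4 each), differed by less than either SD. Control replicate 2 was the lowest library for 5 of the 9 genes and melatonin replicate 3 the highest for 4. After scaling, control replicate 1 was highest for 4 genes and melatonin replicate 3 lowest for 3. Markers of red cells and platelets summed to 123.8 and 166.9 FPKM in control replicates 1 and 3 and 101.9 in melatonin replicate 3, against 39.7 to 43.5 in the other 5 libraries. Control replicates 1 and 3 were also the highest 2 libraries for TIE1 and CLDN5, and the part of blood cells in those values was not tested.

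The genes whose pattern over the 8 libraries was most like the mean of the 9 were ranked by Pearson's r with their mean standardised log2(FPKM + 1), as a description. They were SHE (r = 0.985), METTL17 (0.985), TSPAN13 (0.965), VEGFC (0.961), TMEM161B (0.955), OXNAD1 (0.954), VPS41 (0.945) and IFNAR1 (0.942). The points share each library's scaling: on scaled FPKM the value for SHE was 0.531 and that for VEGFC 0.778. METTL17, at 0.921 after scaling, was the only one of the 8 still among the 8 highest.

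Around the 9 genes, 17 lists of vascular and other cell genes held 183 symbols, of which 168 had a row and 140 were tested. By edgeR 0 of the 140 passed in either direction, and DESeq2 also called 0. Their fitted values were above 0 for 80 and below 0 for 60, with a median log2 fold change of 0.06, and 13 higher and 8 lower, 21 in all, had an unadjusted p under 0.05, beside 10.5% of all genes tested. That number was 11 without melatonin replicate 1, 38 without melatonin replicate 4 and 3 without melatonin replicates 1 and 3 together. The shares of all genes tested in these runs were 8.48%, 19.2% and 4.83%. In scaled FPKM the groups did not overlap for 1 of the 140 higher and 2 lower after melatonin, beside 4.26% of all genes tested. In deposited FPKM this held for 0 higher and 1 lower, beside 2.2%.

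Ligands were listed for the VEGF and angiopoietin families and for other families, FGF2 and PDGFB among them. They had 4 fitted values above 0 and 5 below, with a median of -0.40. VEGFA, the main growth factor for endothelium, was 22.7, 21.7, 23.8 and 16.1 FPKM in controls and 14.0, 16.8, 21.1 and 15.9 after melatonin. Control replicate 4 lay among the melatonin libraries, and the log2 fold change was -0.40 ± 0.19 (SE, adjusted p = 0.496). PDGFB, which endothelial cells release to recruit pericytes, was 19.4 ± 2.04 FPKM in controls and 13.4 ± 3.08 after melatonin (SD, n = 4 each; log2 fold change -0.59 ± 0.23 SE, adjusted p = 0.453). FGF2 was 0.526 ± 0.0429 and 1.59 ± 1.15 FPKM (log2 fold change 1.41 ± 0.39 SE, adjusted p = 0.440), and it overlaps NUDT6 on the opposite strand. The FGF2 log2 fold change was 0.94 without melatonin replicate 3 and 0.60 without melatonin replicates 1 and 3 together. Other vascular receptors were divided 6 above and 6 below with a median of -0.06. In that list TGFBR2 had a log2 fold change of 0.74 (adjusted p = 0.453) and PLXND1 -0.46 (adjusted p = 0.478). The TGFBR2 value was 0.47 without melatonin replicate 1 and 0.15 without melatonin replicates 1 and 3 together.

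Genes of arterial identity and Notch signalling, by which endothelial cells choose sprouting or stalk fates, were divided 5 and 5 with a median of -0.08. DLL4, the Notch ligand of sprouting tip cells, was 2.21 ± 0.487 FPKM in controls and 1.58 ± 0.169 after melatonin (SD, n = 4 each; log2 fold change -0.56 ± 0.18 SE, adjusted p = 0.440). HEY1, a target of Notch, was 1.74 ± 0.444 and 1.25 ± 0.0505 FPKM (log2 fold change -0.54 ± 0.22 SE, adjusted p = 0.461). In deposited FPKM the groups overlapped for both genes. In scaled FPKM, where 4.26% of all genes tested had no overlap, neither gene's groups overlapped, with DLL4 at 1.71 to 2.81 in controls and 1.38 to 1.66 after melatonin, and HEY1 at 1.46 to 2.20 and 1.01 to 1.43.

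Venous genes were above 0 for 5 of 6, with a median of 0.10. ACKR1, the chemokine-binding receptor of venular endothelium, was 1.45, 0.746, 1.51 and 0.547 FPKM in controls and 5.56, 3.20, 3.11 and 1.30 after melatonin. In scaled FPKM, where 4.26% of all genes tested had no overlap, its groups were apart, at 0.536 to 1.49 and 1.51 to 4.70. In deposited FPKM melatonin replicate 4 lay below control replicates 1 and 3. The log2 fold change was 1.50 ± 0.42 (SE), with adjusted p-values of 0.440 in edgeR and 0.0573 in DESeq2. VCAM1, a leukocyte adhesion molecule, had a log2 fold change of 0.65 (adjusted p = 0.452), which was 0.30 without melatonin replicates 1 and 3 together.

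Genes for capillary transport and lipid handling, the route of fatty acids into muscle, were above 0 for 9 of 13, with a median of 0.20. TCF15, a transcription factor of fat-handling capillary endothelium that works with MEOX2, was 2.38, 1.86, 1.87 and 1.01 FPKM in controls and 0.959, 0.921, 0.984 and 0.878 after melatonin. In deposited FPKM, where 2.2% of all genes tested had no overlap, no melatonin library reached the lowest control. In scaled FPKM the groups overlapped (log2 fold change -1.01 ± 0.29 SE, adjusted p = 0.440). MEOX2 had a fitted value of the opposite sign, 0.56 (adjusted p = 0.544), which was 0.11 without melatonin replicate 1 and -0.10 without melatonin replicates 1 and 3.

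Transcription factors, junctions, tone and hypoxia made up the remaining vascular lists. Endothelial transcription factors were 7 above and 6 below (median 0.05), with SOX7 at -0.47 (adjusted p = 0.453) and FOXO1 at 0.55 (adjusted p = 0.517; 0.14 without melatonin replicate 3). Other junction genes were 5 and 3 (median 0.09), with CTNND1 at 0.19 on the log2 scale. Genes of vascular tone were 9 and 4 (median 0.12), with CALCRL at 0.45 (0.26 without melatonin replicate 3) and PDE5A at 0.34 (0.11 without melatonin replicate 1) on the log2 scale. Hypoxia response genes were 3 and 7 (median -0.10), with VEGFA, which is also in this list, at -0.40 and ARNT at 0.21 on the log2 scale.

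Pericytes and smooth muscle of the vessel wall, and also lymphatic endothelium, were measured through marker genes. Pericyte markers were 2 above and 5 below (median -0.22), with NDUFA4L2 at -0.61 and NOTCH3 at -0.42 on the log2 scale, and NDUFA4L2 overlaps SHMT2 on the opposite strand. Smooth muscle markers were 3 and 4 (median -0.15), with LMOD1 at 0.93 and TAGLN at 0.63 (0.36 without melatonin replicate 1) on the log2 scale. Of 7 lymphatic endothelial markers 3 could be tested, all above 0 (median 1.39). LYVE1 was 0.415 ± 0.291 FPKM in controls and 2.10 ± 1.68 after melatonin (SD, n = 4 each, adjusted p = 0.440). Its log2 fold change was 2.14, and 0.88 without melatonin replicates 1 and 3 together. CCL21 was 1.39 on the log2 scale (0.55 without melatonin replicate 1). PROX1, the factor that defines lymphatic fate, averaged 0.329 FPKM.

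Markers of cells outside the vessel wall were measured in the same way. Fibroblast and matrix markers were 8 above and 1 below (median 0.80), with COL1A1 at 2.98 and COL1A2 at 3.07 on the log2 scale. These values were 1.48 and 1.51 without melatonin replicate 1, 1.85 and 1.88 with the replicate number as a block, and 0.19 and 0.11 without melatonin replicates 1 and 3. Adipocyte markers were 4 above (median 1.62), with ADIPOQ at 1.92 and LIPE at 0.73 on the log2 scale. ADIPOQ was 4.31 without control replicate 3 and 0.48 without melatonin replicates 1 and 3, and LIPE was 0.36 without melatonin replicate 3. Macrophage and leukocyte markers were 7 and 1 (median 0.39), with CD163 at 1.21 and TYROBP at 0.64 on the log2 scale. Without melatonin replicates 1 and 3, CD163 was 0.51 and TYROBP 0.30. Red cell and platelet markers were 3 below (median -0.62), with HBB at -0.87 (-0.45 without control replicate 3) and ALAS2 at -0.62 (-0.32 without control replicate 1) on the log2 scale. Muscle fibre markers were 2 and 6 (median -0.18), with DES at -0.41 and MYH2 at 0.57 (0.35 without control replicate 4) on the log2 scale. The part of these other cells in the endothelial values was not tested.

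**Figure D5:**
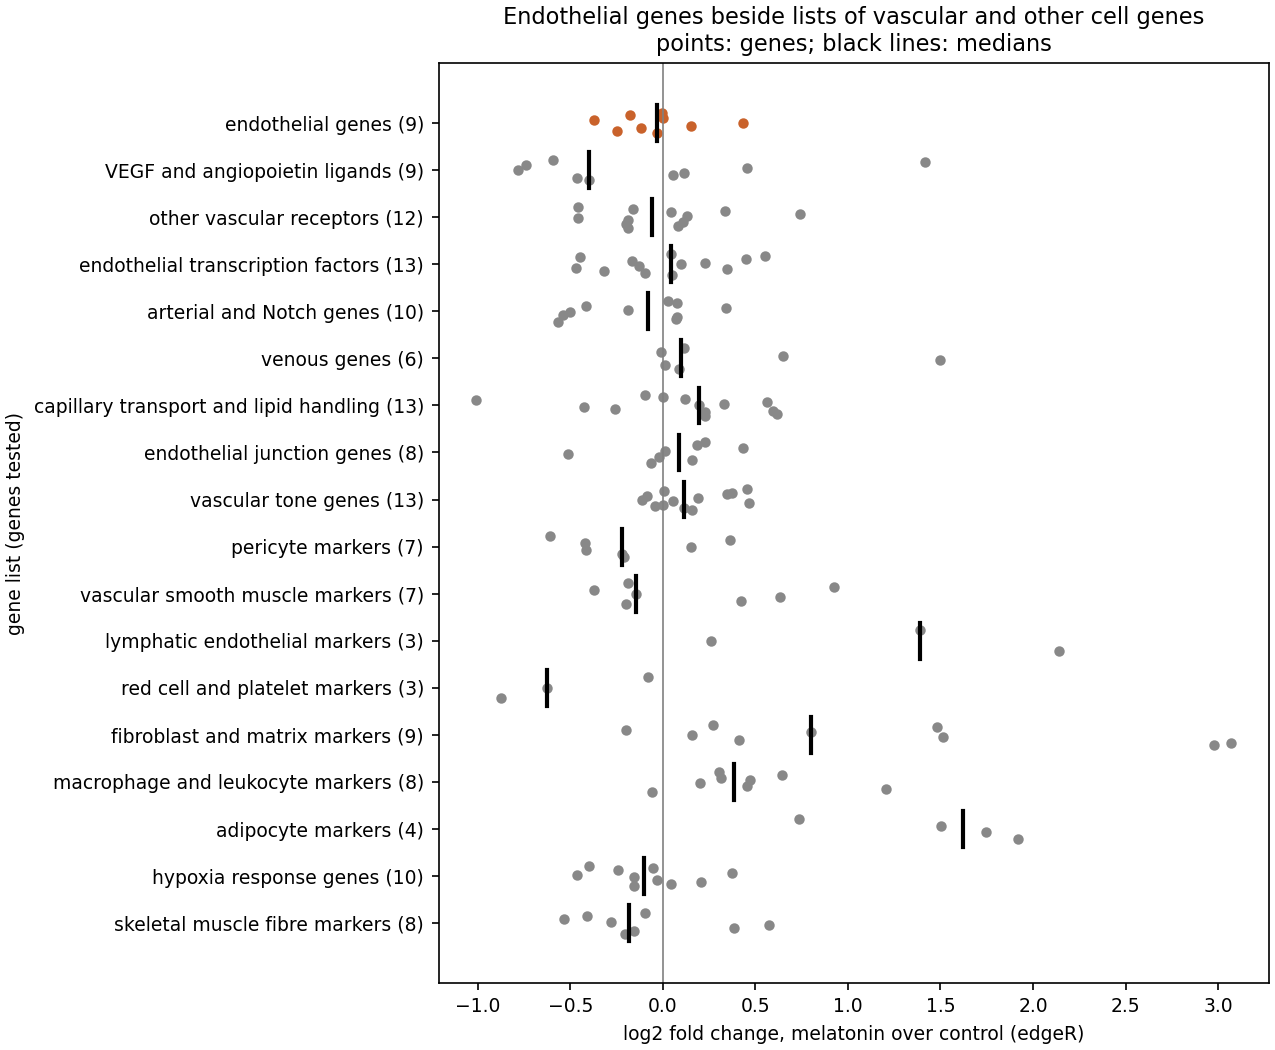
Log2 fold change of melatonin over control (x axis, edgeR) for each tested gene (points) in the endothelial genes (orange) and 17 other lists (grey), with list medians as black lines. The median of the endothelial genes is -0.03, and the medians of the other lists run from -0.62 (red cell and platelet) to 1.62 (adipocyte).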

How the data were processed

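The deposited gene table holds whole-number counts, not normalised, and FPKM for each library, per the file headers. Per the labels' protocols, poly(A) RNA with an integrity number above 7 was used and the second cDNA strand carried dUTP. The submitters' processing notes name the Sscrofa11.1 build, StringTie, FastQC and DESeq2 and give no version. Which aligner, which annotation release and whether strand was used in counting is not given in the sources used here. Coordinates are those of the deposited table. All value columns were mapped, with 0 left over, and 8367 genes have no symbol. Sequences are not shown here.

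The endothelial genes and the lists were chosen with earlier results of these data known. A gene was tested where its FPKM averaged 1 or more over the 8 libraries. The counts, as deposited, entered edgeR's legacy quasi-likelihood F test (edgeR 4.0.16 in R 4.3.3) after TMM scaling, with no covariate, on 4 control and 4 melatonin libraries. P-values were adjusted by Benjamini-Hochberg over all 9821 genes at a threshold of 0.05, and the common biological coefficient of variation was 28%. Intervals are the log2 fold change with its standard error times a t quantile. Ratios were compared by a two-sided exact permutation test over 70 assignments, and pairs of genes by exact permutation of log2(FPKM + 1), with SciPy 1.17.1, NumPy 2.4.6 and pandas 2.3.3 in Python 3.11.15 and plots from Matplotlib 3.10.9. The test code was tested on simulated data. Within each group no 2 libraries agreed within sampling noise.

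Named genes are the endothelial genes, the 2 smallest unadjusted p-values of each list, VEGFA, ANGPT1 and ANGPT2, and the 8 genes most like the endothelial mean. The rule names 1 further gene, which is not reported here. The platelet genes and PROX1 were named after their values were seen. Alternatives were 2 other scalings, no filter and a minimum of 5 FPKM, DESeq2 1.42.0, the bias-adjusted edgeR form, limma 3.58.1 on log2(FPKM + 1) and log2(FPKM + 0.1), the replicate number as a block, and leaving out libraries. FPKM divided by the TMM factor was added after seeing the data.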

Additional observations from a re-analysis of the deposited data

Results flagged for a closer look

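In 5 of 112 groups of 4 libraries, the highest or lowest library stood apart: its gap to the nearest other, divided by the group's range, exceeded Dixon's critical value of 0.829. Chance flags about 1 in 20 groups, which is near the share seen here. For 2 endothelial genes this was in the melatonin group. KDR was 8.65 FPKM in melatonin replicate 3 and 4.23 to 4.82 in the other 3 libraries (gap over range 0.866). CLDN5 was 7.66 FPKM in melatonin replicate 2 and 5.50 to 5.87 in the others (0.831). HBB, the beta chain of haemoglobin, was 97.9 FPKM in melatonin replicate 3 and 37.2 to 39.8 in the others (0.957). Among controls, LMOD1 was 9.54 FPKM in replicate 4 and 4.38 to 5.01 in the others (0.878). ADIPOQ, the fat cell hormone adiponectin, was 30.4 FPKM in control replicate 3 and 0.990 to 2.27 in the others (0.956).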

How the results depend on the processing

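The number of genes called over the whole table was 0 in edgeR, with 1032 at an unadjusted p under 0.05, and 65 in DESeq2. It ran from 0 to 15 as each library was left out, with 15 without melatonin replicate 4. The number at an unadjusted p under 0.05 was 568 (5.78%) without melatonin replicate 3, 1882 (19.2%) without melatonin replicate 4 and 474 (4.83%) without melatonin replicates 1 and 3 together, and 556 and 559 in the limma fits with a pseudocount of 1 and 0.1. In every alternative run 0 of the endothelial genes was called. TEK kept a log2 fold change above 0, from 0.33 to 0.50, with a lowest adjusted p of 0.115. Of 736 values of 42 genes under alternatives, 715 kept their direction and their side of the threshold and 21 changed sign, 18 of them in 5 endothelial genes, and the cause was not tested. PECAM1 was 0.011 at a minimum mean of 5 FPKM, 0.067 and 0.071 with limma on log2(FPKM + 1) and log2(FPKM + 0.1), and -0.15 to 0.11 as each library was left out. KDR ran from -0.31 to 0.029 in the same way. VWF was 0.057 and 0.070 in the limma fits and -0.11 to 0.20 with libraries left out. EMCN was 0.058 and 0.079 in the limma fits and -0.071 to 0.11 with libraries left out. Without melatonin replicates 1 and 3 together VWF was 0.11, CLDN5 0.097, EMCN 0.0089, MEOX2 -0.099, PDE5A -0.067 and LIPE -0.22 on the log2 scale. The log2 difference of ANGPT2 to ANGPT1 ran from -0.50 to 0.17 as each library was left out.

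With the replicate number as a replicate block, edgeR called 0 genes, with 1061 at an unadjusted p under 0.05, and TEK had an unadjusted p of 0.0356. For the ratio of TIE1 to TEK the exact sign-flip permutation p over 4 pairs was 0.25. Deviations of same-numbered libraries correlated at 0.188, 0.102, 0.149 and -0.058, and control replicate 2 was most like melatonin replicate 4 (0.325), so the numbers were not taken as pairs. The endothelial genes had counts of 528 or more in every library, and 4 libraries per group limit the precision.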
